A study of Mus musculus with 41 samples.

Results

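Pparg and Cebpa encode the main transcription factors of fat cell formation, and the peaks described here are those that fell around these genes in chromatin immunoprecipitation (ChIP-seq) of mouse skeletal cells and of fibroblasts given Runx2. A peak was counted at a gene when its centre lay in chr6:115200000-115500000 for Pparg (300 kb) or in chr7:35800000-36000000 for Cebpa (200 kb), in build mm9. Of 155773 peaks in the 8 deposited lists, 91 met this rule, 45 at Pparg and 46 at Cebpa. As many peaks or more, over all lists, were found in 12.6% of all windows of 300 kb and 5.50% of all windows of 200 kb.

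Runx2-BioFL/+ knock-in mice at postnatal day 1 gave the rib chondrocytes and calvarial osteoblasts from which Runx2 was precipitated by its FLAG tag (2 libraries and 1 peak list for each cell type), so that the tagged protein came from 1 of the 2 alleles. Foxa2 was precipitated from wild-type rib chondrocytes and Jun from wild-type calvarial osteoblasts of the same age (1 library each), and all of these mice were C57BL/6. In 3T3 cells, a mouse fibroblast line, the FLAG precipitation was made from cells overexpressing Runx2BioFL and from cells overexpressing green fluorescent protein (GFP), which serve as the background of the precipitation. Each was taken after 3 days in osteogenic medium, which held ascorbate, glycerophosphate and 100 ng/ml of the bone morphogenetic protein BMP-2, and at day 0 (1 library each). The primary cells were released from dissected rib and calvaria by enzymes, and the labels of these libraries name no sort for cell type. The cell types could not be checked against marker genes, since peak lists hold no expression. The lists named for 3T3 Runx2 day 0 and 3T3 GFP day 3 are each tied by the sample labels to the sample of the other name. They are called by their own names here, and values after an exchange are given where they matter.

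PPARγ is a nuclear receptor that binds DNA together with RXR and is required for the formation of fat cells. C/EBPα is a basic leucine zipper factor, and in adipocyte culture each of the pair sustains the expression of the other. Runx2 is required for osteoblast formation, and mesenchymal progenitors of bone marrow can give rise to osteoblasts or to fat cells. Foxa2 is a forkhead factor of hypertrophic cartilage, and Jun is a subunit of AP-1, a factor of many stimulated cells.

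The genes' own regulatory sequences differ from each other, and they are shown because the windows were laid around them. RefSeq places 3 transcription starts at Pparg and 1 at Cebpa in build GRCm38.p6, all on the plus strand. The 250 bases before the first Pparg start, the third Pparg start and the Cebpa start read as follows, 5′ to 3′, with CG dinucleotides in capitals.
Pparg, start 1: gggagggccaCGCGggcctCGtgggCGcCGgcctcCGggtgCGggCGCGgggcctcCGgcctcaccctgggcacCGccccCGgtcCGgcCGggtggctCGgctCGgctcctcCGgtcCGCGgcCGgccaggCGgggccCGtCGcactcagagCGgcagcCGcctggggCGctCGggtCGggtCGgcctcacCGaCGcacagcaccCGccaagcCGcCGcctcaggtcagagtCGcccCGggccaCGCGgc
Pparg, start 3: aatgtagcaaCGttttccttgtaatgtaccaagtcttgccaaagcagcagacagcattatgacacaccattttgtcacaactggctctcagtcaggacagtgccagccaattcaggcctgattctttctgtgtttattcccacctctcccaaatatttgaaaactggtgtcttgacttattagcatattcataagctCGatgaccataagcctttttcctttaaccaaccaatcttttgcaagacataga
Cebpa: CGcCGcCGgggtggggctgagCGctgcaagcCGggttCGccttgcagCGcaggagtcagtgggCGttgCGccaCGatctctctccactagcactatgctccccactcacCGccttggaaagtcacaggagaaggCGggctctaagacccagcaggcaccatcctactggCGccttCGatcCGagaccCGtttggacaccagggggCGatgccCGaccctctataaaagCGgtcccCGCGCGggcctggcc
The first Pparg stretch held 38 CG dinucleotides and was 82.4% G or C, and that of Cebpa held 22 and was 66.4% G or C. The third Pparg stretch held 2 CG dinucleotides and was 40.8% G or C. The stretch before the second Pparg start, which is not printed, held 12 and was 63.6% G or C. Over the 32851 promoters of the table the medians were 6 CG dinucleotides and 52.4% G or C. None of the 4 stretches held the letters TGTGGT (RUNX), TGANTCA (AP-1), TGTTTAC (FOX), TTGCGCAA (C/EBP) or the PPAR-RXR direct repeat on either strand. These motifs were found in 14.0%, 6.75%, 3.17%, 0.164% and 0.0335% of all promoters of the table, in that order. The promoter table is of another build than the peaks, so no peak was placed at or away from a start, and no sequence under a peak was read.

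In the gene order of GRCm38.p6, Syn2 (a synaptic vesicle protein) and Timp4 (an inhibitor of matrix proteases) precede Pparg. The genes that follow Pparg are not named here. Cebpg, which encodes another factor of the C/EBP family, and Gm45095 precede Cebpa, and Slc7a10 (an amino acid transporter) and Lrp3 follow it. A window may hold parts of neighbouring genes, so a peak in it is a peak around the named gene and was not assigned to that gene.

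At Pparg, Runx2 of both primary cell types was listed, and the positions were partly shared. The chondrocyte list had 6 peaks and the osteoblast list 4, numbers reached in 8.83% and 11.2% of all 300 kb windows. Both lists met at 2 places. At chr6:115443401-115443864 the chondrocyte Runx2 peak (chr6:115443509-115443757, 249 bp) lay within the osteoblast Runx2 peak (chr6:115443401-115443792, 392 bp). The only Jun peak of the Pparg window (chr6:115443567-115443660, 94 bp) lay inside both. This was also a place of 3T3 Runx2 peaks of day 3 and day 0, and with 5 of 8 lists it was the position with the most lists at Pparg. The Jun peak ended before both 3T3 Runx2 peaks, which began at chr6:115443664 (day 3) and chr6:115443725 (day 0). The second shared place was chr6:115494583-115494782, where chondrocyte Runx2 (chr6:115494630-115494734) and osteoblast Runx2 (chr6:115494662-115494782) overlapped each other and 3T3 Runx2 peaks of both days.

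The other chondrocyte peaks at Pparg had no osteoblast partner. The peak at chr6:115218076-115218152 (77 bp) lay within 3T3 Runx2 peaks of both days, and the peak at chr6:115234177-115234396 overlapped the list named for 3T3 Runx2 day 0 and not day 3. The peak at chr6:115430185-115430645 (461 bp) was the only primary Runx2 peak at either gene that overlapped Foxa2, whose peak lay at chr6:115430453-115430572, and 3T3 Runx2 peaks of both days overlapped both. The peak at chr6:115283152-115283336 overlapped no other list. Of the 2 osteoblast peaks without a chondrocyte partner, that at chr6:115266984-115267174 overlapped 3T3 Runx2 of both days and that at chr6:115390507-115390667 overlapped no list. The remaining Foxa2 peaks, at chr6:115263237-115263391 and chr6:115264016-115264165, were 624 bp apart and overlapped no other list.

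**Figure D1:**
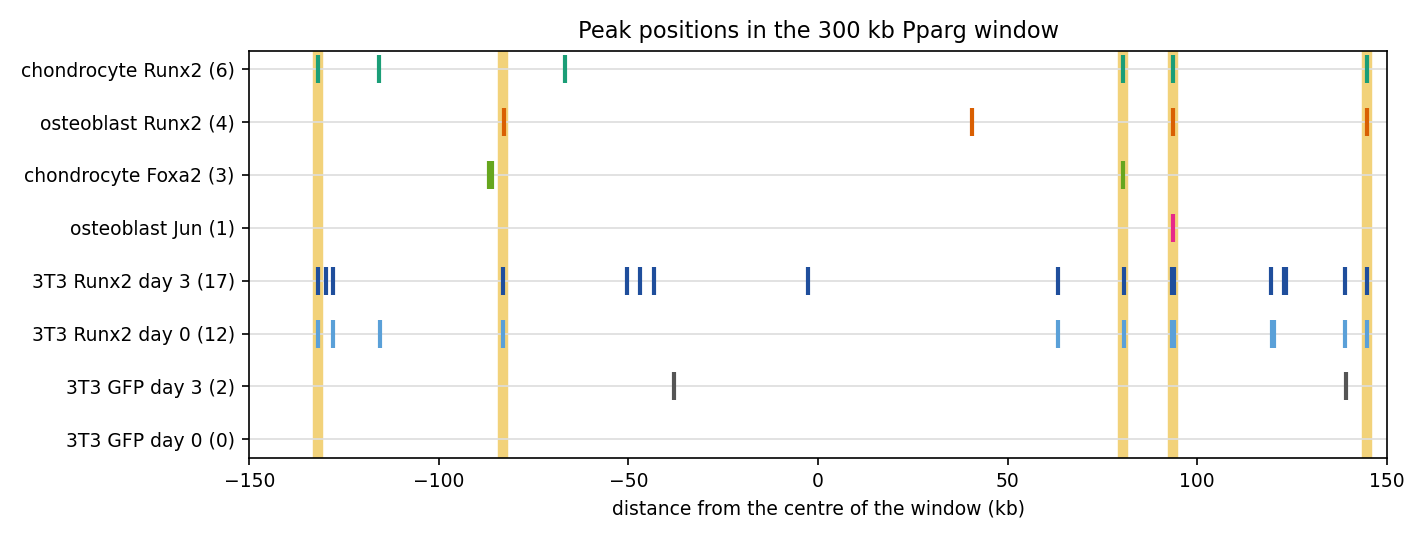
Peak positions in the Pparg window, in kb from the centre of the window, 1 row per list with its number of peaks; each tick is 1 peak, and pale bands mark the 5 sites that hold peaks of at least 3 lists. The 2 GFP day 3 ticks fall on no band, and the GFP day 0 row is empty.

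Runx2 in 3T3 fibroblasts had the most peaks at Pparg, with 17 at day 3 and 12 at day 0, reached in 11.2% and 9.21% of windows. These 2 lists were also the longest, with 50180 and 31013 peaks, against 16799 or fewer in each other list. The GFP lists had 2 at day 3, reached in 33.7% of windows, and 0 at day 0. With the lists of crossed labels exchanged, Runx2 had 17 peaks at day 3 and 2 at day 0, against GFP with 12 at day 3 and 0 at day 0. When overlapping peaks of all lists were merged, the window held 25 sites, of which 19 had a 3T3 Runx2 peak. By the names of the lists, 10 of these 19 were listed on both days, 7 at day 3 and not day 0, and 2 at day 0 and not day 3. After the exchange, 0 of the 17 day 3 peaks overlapped Runx2 day 0, and 10 overlapped GFP day 3. Under the lists' own names, the 7 sites without a day 0 peak held no peak of any other list either. How many such sites of the whole series hold no other list was not counted. The widest day 3 peak was among the 7 (chr6:115219938-115220315, 378 bp). The widest day 0 peak, chr6:115469482-115469769 (288 bp), overlapped a day 3 peak at chr6:115469507-115469660 that stood 3.26% of the way down its file, the earliest of the 17. The GFP day 3 peaks lay at chr6:115311724-115312189 and chr6:115489154-115489349. Neither overlapped a Runx2 peak, and the second began 27 bp after a site of 3T3 Runx2 on both days (chr6:115489060-115489126).

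The peaks were not spread evenly over the Pparg window. Its 6 consecutive parts of 50 kb held 8, 7, 4, 1, 13 and 12 peaks, from the lower to the higher coordinate. The longest stretch without a peak of any list ran over 43165 bp, chr6:115347342-115390506. The last 2 parts, chr6:115400001-115500000, held 11 of the 25 sites, among them all 3 with peaks of at least 4 lists.

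At Cebpa the chondrocyte Runx2 list had 6 peaks and the osteoblast list 3, reached in 4.10% and 10.6% of all 200 kb windows, and they again met at 2 places. The first, chr7:35840672-35841856, was 1185 bp wide, the widest merged site of the Cebpa window, and held 11 peaks of 6 lists. There the osteoblast Runx2 peak (chr7:35841268-35841546, 279 bp) stood 3.81% of the way down its file, the earliest of the primary Runx2 peaks at either gene, and it overlapped the chondrocyte Runx2 peak (chr7:35841487-35841582). The same site held 3 peaks of 3T3 Runx2 day 3, 3 of the list named for day 0, 2 of the list named for GFP day 3 and 1 of Jun. The Jun peak (chr7:35841058-35841178) overlapped 3T3 Runx2 day 3 and GFP day 3 peaks and ended before both primary Runx2 peaks. Both primary Runx2 peaks overlapped the GFP day 3 peak at chr7:35841389-35841856, and both overlapped at least 1 peak of the list named for 3T3 Runx2 day 0 (chr7:35841299-35841511 and chr7:35841443-35841575). Under either naming of the crossed lists, a peak of the day 3 GFP precipitation therefore lay on both primary Runx2 peaks. That precipitation was made in 3T3 cells and not in the primary cells. Such overlap was common for 1 of the crossed lists. The list named for 3T3 Runx2 day 0 overlapped 48.2% of all chondrocyte and 53.2% of all osteoblast Runx2 peaks. For the other crossed list these shares were not computed.

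The second shared place at Cebpa, chr7:35903559-35904378, held Runx2 of the primary cells and no other list. The chondrocyte peak (chr7:35903559-35904050, 492 bp) and the osteoblast peak (chr7:35903942-35904378, 437 bp) were the widest of their lists at either gene. The second Jun peak of the window, chr7:35903088-35903253, ended 305 bp before them. Of the 4 sites at the 2 genes with Runx2 of both primary cell types, this was the only one without a 3T3 Runx2 peak of either day. In the whole series, 82.9% of the 4754 merged sites with both primary Runx2 lists also held 3T3 Runx2.

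**Figure D2:**
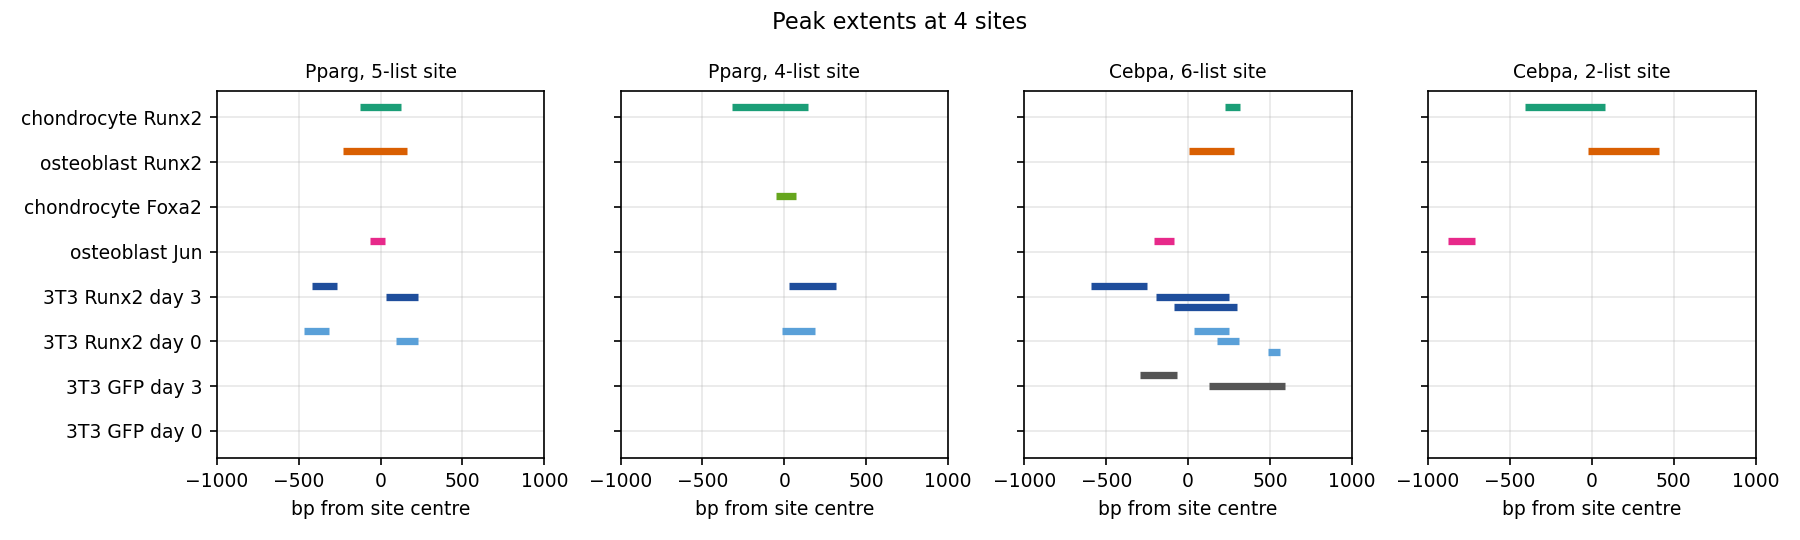
Extents of the peaks at 4 merged sites, in bp from the centre of each site, 1 row per list; each bar is 1 peak, with peaks of 1 list set apart in height. The panels show the 5-list site at Pparg with the site 32 bp before it, the 4-list Pparg site with Foxa2, the 6-list site at Cebpa, and the Cebpa site of both primary Runx2 lists, with the Jun peak 305 bp before it and no 3T3 row filled.

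The other primary peaks at Cebpa were listed in 1 cell type each. Chondrocyte Runx2 peaks at chr7:35827860-35828049 and chr7:35866014-35866365 overlapped 3T3 Runx2 of day 3 and not day 0. Those at chr7:35876840-35877039 and chr7:35912367-35912495 overlapped no list, though the second began 130 bp after a 3T3 Runx2 site of both days (chr7:35912057-35912236). The osteoblast peak at chr7:35871768-35871900 overlapped no list. Foxa2 had 3 peaks at Cebpa, and none overlapped primary Runx2. The peak at chr7:35811020-35811198 overlapped 3T3 Runx2 of both days, that at chr7:35870135-35870248 lay within a 3T3 Runx2 day 3 peak, and that at chr7:35999192-35999309 stood alone.

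**Figure D3:**
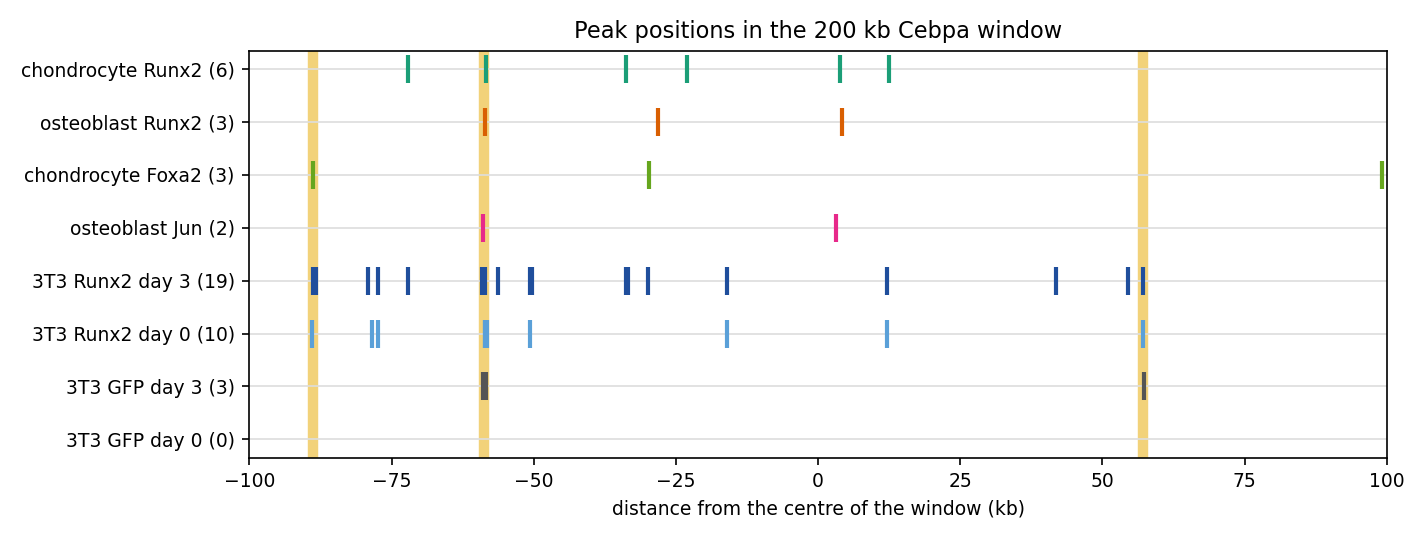
Peak positions in the Cebpa window, in kb from the centre of the window, 1 row per list with its number of peaks; each tick is 1 peak, and pale bands mark the 3 sites that hold peaks of at least 3 lists. All 3 GFP day 3 ticks fall on bands, and the shared primary Runx2 peaks just right of the centre do not.

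In 3T3 cells Runx2 had 19 peaks at Cebpa at day 3 and 10 at day 0, reached in 3.77% and 6.80% of windows. GFP had 3 at day 3, reached in 18.7% of windows, and 0 at day 0. After the exchange of the crossed lists, Runx2 had 19 peaks at day 3 and 3 at day 0, against GFP with 10 at day 3 and 0 at day 0. The window held 24 merged sites, 18 with a 3T3 Runx2 peak. By the names of the lists, 7 of these 18 were listed on both days, 10 at day 3 and not day 0, and 1 at day 0 and not day 3. The widest day 3 peak was chr7:35820584-35821075 (492 bp), which overlapped no list. The widest day 0 peak, chr7:35821383-35821680 (298 bp), began 307 bp after it and also overlapped none. All 3 GFP day 3 peaks overlapped 3T3 Runx2 day 3: those at the 6-list site (chr7:35840971-35841196 and chr7:35841389-35841856) and that at chr7:35957152-35957405, a site with 3T3 Runx2 of both days. At Cebpa 25 of the 46 peaks and 10 of the 24 sites lay in the lowest of the 4 parts of 50 kb, chr7:35800001-35850000. Of these 25 peaks, 11 belonged to the 6-list site. The next parts held 9, 7 and 5 peaks. How peaks lay over the parts of other windows was not counted, for either gene.

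Each list gave 1 value per gene, so no count has a replicate error and no test between groups was made. Intervals are 95% exact Poisson intervals for counts and 95% Wilson intervals for shares. They cover counting error only, and peaks of 1 locus are not independent. The numbers were set against all complete windows of the same length, laid end to end along each chromosome up to its last peak (8785 of 300 kb and 13186 of 200 kb).

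Each Runx2 list had more peaks around both genes than in its mean window, though not always beyond counting error. At Pparg the 6 chondrocyte Runx2 peaks (2.20 to 13.1) stood against a mean of 1.75 per 300 kb window, a ratio of 3.43 (1.26 to 7.47). The 4 osteoblast peaks (1.09 to 10.2) stood against 1.16, a ratio of 3.44 (0.936 to 8.80). For 3T3 Runx2 the ratios at Pparg were 2.98 (1.74 to 4.78) at day 3 and 3.41 (1.76 to 5.95) at day 0. The interval for osteoblasts included 1, and the other 3 did not. For chondrocytes this depended on the window and the background: the ratio was 2.57 (0.945 to 5.60) with the window widened by 50 kb on both sides and 2.54 (0.931 to 5.52) over windows with a peak of any list. In the wider 50% of the 3T3 Runx2 day 3 list the ratio at Pparg was 2.11 (0.773 to 4.58). With the crossed lists exchanged, the ratio at Pparg was 1.05 (0.127 to 3.79) for Runx2 at day 0 and 3.41 (1.76 to 5.95) for GFP at day 3.

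Windows with as many peaks were not rare all the same, though the median 300 kb window held 0 or 1 peak of each list. The shares of windows with at least as many Runx2 peaks as Pparg, given above with the counts, ran from 8.83 to 11.2%. The highest count of any 300 kb window was 21 for chondrocyte Runx2 and 76 for 3T3 Runx2 day 3. Foxa2 with 3 peaks (0.619 to 8.77) had a ratio of 1.80, and 24.9% of windows had at least as many. Jun with 1 peak (0.0253 to 5.57) had a ratio of 0.590, and 48.8% of windows held a Jun peak. GFP day 3 with 2 peaks had a ratio of 1.05, reached in 33.7% of windows.

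The ratios of the 4 Runx2 lists were higher at Cebpa than at Pparg, with intervals that overlapped between the genes. This order depended on the windows. With the windows widened by 50 kb on both sides, the list named for 3T3 Runx2 day 0 had 3.12 at Cebpa and 3.62 at Pparg. Osteoblast Runx2 then had 2.58 at both genes. Chondrocyte Runx2 (3.43 and 2.57) and 3T3 Runx2 day 3 (3.86 and 3.42) kept the order. In the windows as set, chondrocyte Runx2 at Cebpa had a ratio of 5.15 (1.89 to 11.2) and osteoblast Runx2 3.87 (0.797 to 11.3). The ratio of 3T3 Runx2 was 5.00 (3.01 to 7.81) at day 3 and 4.26 (2.04 to 7.83) at day 0. The exchange of the crossed lists gave 2.36 (0.486 to 6.89) for Runx2 at day 0 and 4.26 (2.04 to 7.83) for GFP at day 3, so at both genes it was GFP day 3 whose interval then lay above 1, not Runx2 day 0. The shares of windows with at least as many Runx2 peaks as Cebpa ran from 3.77 to 10.6%. Foxa2 had a ratio of 2.69 (15.4% of windows), Jun 1.77 (25.7%) and GFP day 3 2.36 (18.7%), and all 3 intervals included 1 under the lists' own names. GFP day 0 had no peak at either gene, which allows up to 3.69 per window, against a mean of 0.281 per 300 kb window and 0.187 per 200 kb window. A count of 0 could not show fewer peaks than the mean window for this list, since only 16.7% of the 300 kb and 12.2% of the 200 kb windows held any of its peaks.

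**Figure D4:**
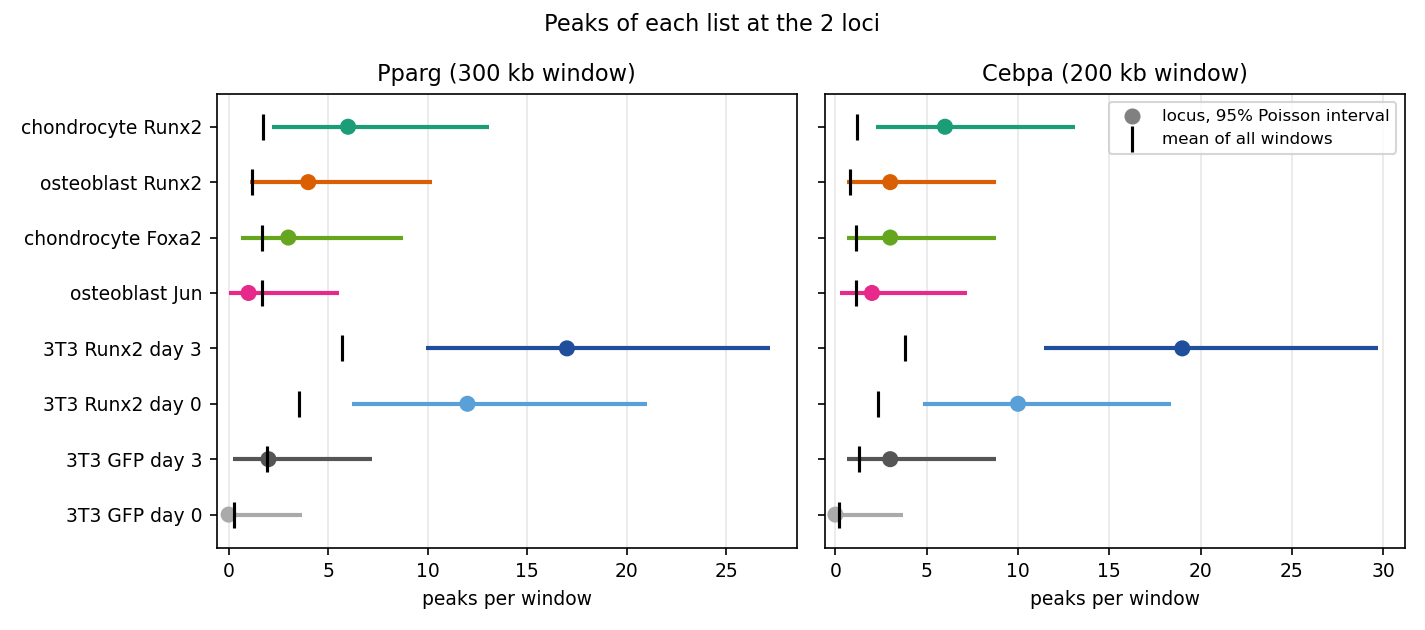
Number of peaks of each list at Pparg (left) and Cebpa (right), as points with exact 95% Poisson intervals, beside the mean of all windows of the same length (black ticks). For chondrocyte Runx2, 3T3 Runx2 day 3 and the list named for 3T3 Runx2 day 0 the interval lies above the mean at both genes. With the crossed lists exchanged, Runx2 day 0 has 2 peaks at Pparg and 3 at Cebpa, and both intervals hold the mean.

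Both genes had peaks of 7 of the 8 lists, all except GFP day 0. This was so of many windows: 28.0% of the 300 kb and 18.5% of the 200 kb windows held peaks of at least 7 lists. At the level of single sites, 22 of the 49 merged sites at the 2 genes held at least 2 lists (44.9%), against 38.9% of the 82629 sites of the series. At least 3 lists were found at 8 sites (16.3%), against 17.8% of all sites. The 2 sites with 5 or more lists, 1 at each gene, are described above, and 4.22% of all sites reached that number. Of the 15 sites with Runx2 of a primary cell type, 9 also held 3T3 Runx2, and 57.1% of such sites did so in the series. By the names of the lists, 17 of the 37 sites with 3T3 Runx2 held both days, and 44.7% did so in the series. With the crossed lists exchanged, 11.1% (4.41 to 25.3%) of the 3T3 Runx2 day 3 peaks at the 2 genes overlapped day 0. The whole day 3 list then had 15.9%. By the names the shares were 50.0% at the 2 genes and 51.4% in the whole list.

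The sharing between lists was also close to that of the whole lists in most pairs, as far as so few peaks can show. Of the 12 chondrocyte Runx2 peaks at the 2 genes, 4 (33.3%, 13.8 to 60.9%) overlapped osteoblast Runx2, against 29.9% of the whole chondrocyte list. Of the 7 osteoblast Runx2 peaks, 4 (57.1%, 25.0 to 84.2%) overlapped chondrocyte Runx2, against 45.2% of the whole osteoblast list. The 3T3 Runx2 day 3 list overlapped 7 of the 12 chondrocyte peaks (58.3%, 32.0 to 80.7%) and 4 of the 7 osteoblast peaks (57.1%, 25.0 to 84.2%), against 52.7% and 58.5% of the whole lists. The list named for 3T3 Runx2 day 0 overlapped 6 of the 12 (50.0%, 25.4 to 74.6%) and 4 of the 7, against 48.2% and 53.2%. The 2 genes differed here. It overlapped 5 of the 6 chondrocyte peaks at Pparg (83.3%, 43.6 to 97.0%) and 1 of the 6 at Cebpa (16.7%, 3.01 to 56.4%). For osteoblast peaks the counts were 3 of 4 at Pparg and 1 of 3 at Cebpa. The chondrocyte intervals overlapped between the genes, and both held the value of the whole list. Counted from 3T3 cells, 8 of the 36 day 3 peaks (22.2%, 11.7 to 38.1%) overlapped chondrocyte Runx2 and 5 (13.9%, 6.08 to 28.7%) osteoblast Runx2, against 18.4% and 14.1% of the whole day 3 list. Of the 36 day 3 peaks, 18 (50.0%, 34.5 to 65.5%) overlapped the list named for day 0, against 51.4% of the whole list. Of the 22 peaks of the list named for day 0, 18 (81.8%, 61.5 to 92.7%) overlapped day 3, against 81.8%.

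Foxa2 and Jun, the partner factors precipitated from the primary cells, each shared 1 position at the 2 genes with Runx2 of the same cell type. Foxa2 overlapped 1 of the 12 chondrocyte Runx2 peaks (8.33%, 1.49 to 35.4%), against 18.3% of the whole list. Jun overlapped 1 of the 7 osteoblast Runx2 peaks (14.3%, 2.57 to 51.3%), against 25.3%. Counted from the partner, 1 of the 6 Foxa2 peaks (16.7%, 3.01 to 56.4%) overlapped chondrocyte Runx2, against 19.2% of the whole Foxa2 list, and 1 of the 3 Jun peaks (33.3%, 6.15 to 79.2%) overlapped osteoblast Runx2, against 17.6% of the whole Jun list. All 4 intervals held the value of the whole list. Both of these overlaps lay at Pparg, and 0 lay at Cebpa. Jun overlapped 1 of the 36 3T3 Runx2 day 3 peaks (2.78%, 0.492 to 14.2%), against 13.1% of the whole list, and 0 of the 22 of the list named for day 0 (0 to 14.9%), against 18.7%. The first of these intervals held the value of the whole list and the second did not. Of the 6 Foxa2 peaks, 3 (50.0%, 18.8 to 81.2%) overlapped 3T3 Runx2 day 3, against 10.8% of the whole Foxa2 list. This pair was picked out after its values were seen, among 20 compared, and no test was made of it. The pairs of Jun with 3T3 Runx2 were not planned either, and no test was made of them.

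Of the 5 GFP day 3 peaks, the 3 at Cebpa overlapped 3T3 Runx2 day 3 and the 2 at Pparg did not, against 41.9% of the whole GFP day 3 list. Counted from Runx2, 4 of the 19 day 3 peaks at Cebpa (21.1%, 8.51 to 43.3%) and 0 of the 17 at Pparg (0 to 18.4%) overlapped GFP day 3, against 15.9% of the whole list. These intervals overlapped, and both held the value of the whole list. With the crossed lists exchanged, GFP day 3 overlapped 8 of the 19 Runx2 day 3 peaks at Cebpa (42.1%, 23.1 to 63.7%). At Pparg it overlapped 10 of the 17 (58.8%, 36.0 to 78.4%), against 51.4% of the whole day 3 list. The order of the genes was then the opposite, but these intervals overlapped too, and both held the value of the whole list. None of the 22 peaks of the list named for Runx2 day 0 overlapped GFP day 0 (0 to 14.9%), against 4.37% of the whole list. No test was made between the genes.

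**Figure D5:**
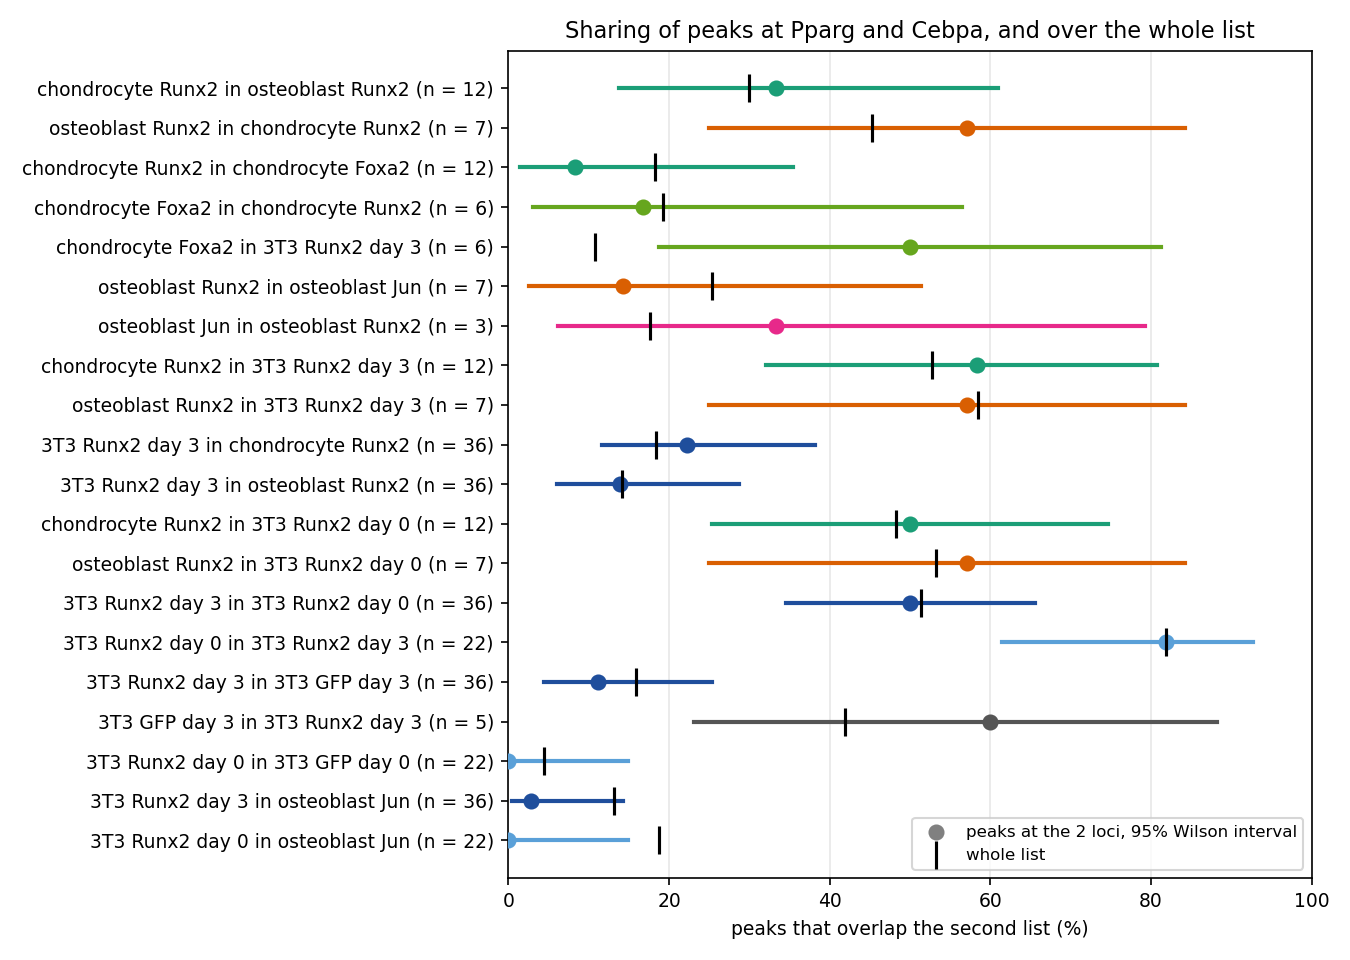
Share of the peaks at Pparg and Cebpa that overlap a second list, as points with 95% Wilson intervals and the number of peaks in brackets, beside the share over the whole first list (black ticks). The interval misses the tick in 2 of the 20 rows, chondrocyte Foxa2 in 3T3 Runx2 day 3 and the list named for 3T3 Runx2 day 0 in osteoblast Jun.

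The order of each file followed no stated measure. Over all lists together, the peaks at the 2 genes stood from 3.26% to 99.0% of the way down their files. Single lists with few peaks spanned less: osteoblast Runx2 ran from 47.6 to 86.1% at Pparg (4 peaks) and from 3.81 to 41.8% at Cebpa (3 peaks). The median peak stood 70.5% of the way down the chondrocyte Runx2 file at Pparg and 55.3% at Cebpa, and 79.2% and 19.6% for osteoblast Runx2. In the 3T3 Runx2 day 3 file the medians were 58.3% at Pparg and 60.1% at Cebpa. The single Jun peak at Pparg and the Foxa2 peak that overlapped chondrocyte Runx2 came early in their files, at 9.99% and 10.4%. The chondrocyte Runx2 peak under that Foxa2 peak came late, at 85.6%. The peaks of the primary Runx2 site at chr7:35903559-35904378 stood at 19.9% of the chondrocyte file and 19.6% of the osteoblast file.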

How the data were processed

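The 8 peak lists were used as the authors deposited them, 1 for each ChIP group, with chromosome, start and end in 3 columns and no score, height or p-value. The build was mm9, and Bowtie and DiffBind are named without a role, per the submitters' processing notes. Read depth, how peaks were called and at what threshold, which control each list had and whether the 2 primary Runx2 libraries of a cell type were pooled are not given in the sources used here. A list made with a looser threshold or from deeper reads holds more peaks, so counts were compared with the size of the same list. The 23 ATAC-seq libraries, the 7 inputs and the IgG control were not analysed here.

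Positions are printed 1-based in mm9. Peaks overlapped when they shared at least 1 bp, and peaks of any list that overlapped were merged into sites. A merged site can join peaks that touch only through another peak. Windows of 300 and 200 kb covered chromosomes 1 to 19, X and Y up to the last peak, assembly gaps included. The RefSeq tables were of GRCm38.p6, and 875 peaks on chromosome 7 lay beyond its last gene, so no coordinate of that build was used. Motifs under peaks and peaks near further adipogenic genes, both planned, were not run for this reason. Positions named are all peaks of the primary lists and of GFP, sites of at least 3 lists and the widest 3T3 Runx2 peaks. The 2 genes, their windows and these rules were chosen with earlier results of these data known. Other positions named were chosen after their values were seen.

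Overlap counts found the planted number in 20 of 20 simulated pairs of lists and differed from bedtools 2.31.1 in 0 of 56 pairs. Python 3.11.15, NumPy 2.4.6, pandas 2.3.3, SciPy 1.17.1 and matplotlib 3.10.9 were used.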

Additional observations from a re-analysis of the deposited data

How the results depend on the processing

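Each group had 1 list without scores and no replicate, so the values carry counting error only, and a change of threshold could be imitated only by shortening the lists. No paired analysis was possible because the result comes from no test and the 2 numbered Runx2 libraries of each primary cell type share 1 list. Of 258 values under the alternatives, 222 stayed close to the value reported and 36 did not: counts and shares of windows were called close within 1.5 times, density ratios and shares of peaks within the 95% interval of the value reported. A shorter list holds fewer peaks by construction.

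In the wider 50% of each list the counts at Pparg were 2 for osteoblast Runx2, 0 for Jun (a density ratio of 0), 6 for 3T3 Runx2 day 3, 6 for day 0 and 1 for GFP day 3. At Cebpa they were 1 for Foxa2, 1 for Jun, 11 for 3T3 Runx2 day 3, 6 for day 0 and 1 for GFP day 3. Among peaks in the upper 50% of each file, Pparg had 2 chondrocyte Runx2 peaks, 1 osteoblast Runx2 peak, 6 of 3T3 Runx2 day 3, 4 of day 0 and 0 of GFP day 3 (a density ratio of 0). Cebpa had 3 of chondrocyte Runx2, 1 of Jun, 8 of 3T3 Runx2 day 3, 3 of day 0 and 1 of GFP day 3. There the overlaps of chondrocyte Runx2 with Foxa2 and of osteoblast Runx2 with Jun were 0%, from either side. With the window widened by 50 kb on both sides, 3T3 Runx2 day 3 had 26 peaks at Pparg.

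With the crossed lists exchanged, Pparg had 2 peaks of 3T3 Runx2 day 0 and 12 of GFP day 3, and Cebpa 3 and 10. The density ratio of 3T3 Runx2 day 0 at Pparg was then 1.05 (this exchange of ratios was chosen after seeing the data). The share of 3T3 Runx2 day 3 peaks in day 0 was then 11.1%, that of day 0 peaks in day 3 60.0%, and that of day 3 Runx2 peaks in GFP day 3 50.0%. Where overlap had to cover 50% of the shorter peak, the share of 3T3 Runx2 day 3 peaks in GFP day 3 was 2.78%. The cause of these changes was not tested. Counting overlapping peaks of a list once, an alternative chosen after seeing the data, left 16 of 16 counts within 1.5 times. So did the window rule by any overlap. The density ratios stayed within their intervals in 14 of 14 cases without chromosomes X and Y, with the wider window and, also chosen after seeing the data, over windows with a peak of any list. Staying within these intervals does not mean that a ratio stayed apart from 1: beside the cases given with the ratios, the interval included 1 in the first 50% of the file for chondrocyte Runx2 (2.29, 0.277 to 8.26), 3T3 Runx2 day 3 (2.11, 0.773 to 4.59) and day 0 (2.27, 0.619 to 5.82) at Pparg, and for 3T3 Runx2 day 0 at Cebpa (2.56, 0.527 to 7.47). That of osteoblast Runx2 at Cebpa then lay above 1 (7.73, 1.59 to 22.6).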
